A study of Mus musculus with 8 samples.

Results

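Hydrolysis of stored triglyceride by adipose triglyceride lipase (ATGL) was described here through 10 genes: the lipase gene Pnpla2, its relatives Pnpla3 and Pnpla5, the coactivator gene Abhd5, the inhibitor genes G0s2 and Hilpda, the downstream lipase genes Lipe and Mgll, and the lipid droplet genes Fitm1 and Fitm2. The genes were chosen by name, and all 10 had a probe on the array, 11 probes of 60273 in all and 10 genes of 26698 with a symbol. Liver RNA of male mice was hybridised with 1 dye, Cy3, to a custom Agilent expression array. Of the arrays, 4 held RNA of the genotype Ltg/NZO.5.3N/B (NB, numbered 2, 3, 5 and 8 in the labels) and 4 of the genotype Ltg/NZO.5.3N/N (NN, numbered 1, 4, 6 and 7). Both came from a cross of the New Zealand Obese (NZO) substrain NZO/HiBomDife, a model of obesity and fatty liver, with C57BL/6J. They ate a high-fat diet of 45% fat until week 5, and RNA was taken from livers of mice described as 5 weeks old. The strain names mark congenic mice that differ in a segment of 5.3 Mbp on chromosome 18. None of the 10 genes lies on that chromosome: in the GRCm38.p6 annotation they lie on chromosomes 1, 2, 6, 7, 9, 14 and 15. The comparison asks whether the segment is accompanied by a different level of these transcripts elsewhere in the genome.

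Triglyceride in a lipid droplet is broken down stepwise. ATGL removes the first fatty acid, hormone-sensitive lipase (encoded by Lipe) cleaves the diglyceride, and monoglyceride lipase (encoded by Mgll) releases the last fatty acid and glycerol. ABHD5 binds ATGL and raises its activity, while G0S2 and HILPDA bind ATGL and lower it. In liver, fatty acids released this way feed oxidation and the signalling that acts through the nuclear receptor PPARα, and mice without hepatic ATGL store triglyceride there.

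No gene of the lipolysis pathway passed the test between the genotypes. Of the 10 genes, 0 were called by limma at an adjusted p under 0.05, where 0.00695% of all 43152 features were called, and 0 had an unadjusted limma p under 0.05, where 1.69% of all features did. The NB and NN arrays overlapped for all 10 genes; they did not overlap for 1.1% of features. The log2 fold changes (NB minus NN) ranged from −0.14 for G0s2 to 0.064 for Fitm2, 3 above and 7 below 0, with a median of −0.014, beside −0.0098 over all features. The genes differed more in their spread between arrays: G0s2 spanned 3.39-fold over the 8 arrays, whereas Pnpla2 spanned 1.13-fold.

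Each level below is the log2 of the processed signal over the 75th percentile of its own array, so 0 is the level of that percentile, and levels of different probes are not compared with each other. The arrays were of like quality: the 75th percentile lay between 445 and 584.4 intensity units, from 74.4% to 79.6% of probes were well above background, and correlations between arrays across probes were 0.989 to 0.995 within and 0.990 to 0.995 between genotypes. All 8 arrays lay on 1 slide with 1 scan date, and each of its 4 columns held 1 array of each genotype. Most features of any kind were well above background on all 8 arrays: 39850, where 55587 were fitted without a filter. All 10 hepatocyte markers were well above background on all 8 arrays, with linear sums of 1058 to 1281 on NB and 1104.8 to 1290 on NN arrays. The same held for 10 of 12 adipocyte markers, with Adipoq above background on 3 arrays and Cfd on 6. Their linear sum was 134 to 158 on NB and 113 to 162 on NN arrays, but Car3, also known from hepatocytes, made up 93.5% to 95.6% of it. Without Car3 the sum was 7.07 to 9.63 on NB and 6.60 to 7.94 on NN arrays. Of 10 skeletal muscle markers 9 were above background on all arrays and Myh1 on 0, with sums of 20.7 to 23.7 on NB and 19.7 to 23.7 on NN arrays, of which Acta1 made up 65.8% to 72.7%. These are whole-liver samples, in which fewer cells of a type and less RNA per cell cannot be told apart, and with 4 arrays a genotype every value has limited precision.

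Because the array reads each gene through a single oligonucleotide, and Mgll through a pair, the probes of the genes on which the account turns are printed as deposited, 5′ to 3′. They were from 46 to 58 bases long over the 11 probes, and each sequence occurs once on the array. No capitals are used, since no part of a probe is singled out. The chromosome of each gene is that of GRCm38.p6.
Pnpla2 (chromosome 7): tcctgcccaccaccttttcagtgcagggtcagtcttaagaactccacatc
Pnpla3 (chromosome 15): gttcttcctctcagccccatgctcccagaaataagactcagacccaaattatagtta
Abhd5 (chromosome 9): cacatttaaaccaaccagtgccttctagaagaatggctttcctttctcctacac
G0s2 (chromosome 1): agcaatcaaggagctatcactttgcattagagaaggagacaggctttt
Hilpda (chromosome 6): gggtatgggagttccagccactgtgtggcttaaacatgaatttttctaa
Mgll, brighter probe (chromosome 6): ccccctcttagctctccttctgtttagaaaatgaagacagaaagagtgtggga
Mgll, dimmer probe (chromosome 6): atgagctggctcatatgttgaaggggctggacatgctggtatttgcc

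Pnpla2 encodes ATGL itself and lies at chr7:141455188-141460743 (GRCm38.p6). Its log2 signal was 2.65, 2.69, 2.68 and 2.76 on NB arrays 2, 3, 5 and 8, against 2.75, 2.80, 2.62 and 2.71 on NN arrays 1, 4, 6 and 7. The highest and the lowest array were both NN, so the NB values lay inside the NN range. NB minus NN was −0.028 on the log2 scale (SE 0.0714, 95% interval −0.19 to 0.13), which bounds the ratio of NB to NN between 0.876 and 1.098. ATGL mRNA was among the steadiest in these livers. Its standard deviation within genotypes, 0.0609, was at percentile 3.26 of all features, whose median was 0.172.

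Pnpla3 encodes adiponutrin, a close relative of ATGL on lipid droplets, best known from the human gene as a site of inherited risk of fatty liver disease. In mouse liver it is known as a target of the lipogenic factors SREBP-1c and ChREBP. The gene lies at chr15:84167776-84189521. Its log2 signal was 2.02, 1.96, 1.92 and 1.82 on NB arrays 2, 3, 5 and 8, against 2.02, 2.02, 1.81 and 1.90 on NN arrays 1, 4, 6 and 7. NB 2, NN 1 and NN 4 were the highest and NN 6 and NB 8 the lowest, so each genotype held values at both ends. Between genotypes the log2 fold change was −0.0038 (SE 0.0830, 95% interval −0.19 to 0.18), the smallest of the 10, and its sign turned under several scalings. Over the slide the means of the 2 arrays in columns 1 to 4 were 2.02, 1.99, 1.86 and 1.86, so the higher values lay in columns 1 and 2, in both genotypes.

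Pnpla5 encodes a further patatin-like lipase, linked to lipid droplets and autophagy in cultured cells. It lies beside Pnpla3, at chr15:84112621-84123175. Its log2 signal was −2.13, −2.33, −2.18 and −2.02 on NB arrays 2, 3, 5 and 8, against −2.35, −2.33, −1.41 and −2.01 on NN arrays 1, 4, 6 and 7. NN 6 stood above the other arrays, and the other NN values spanned the NB range. This gave a log2 fold change of −0.14 (SE 0.198, 95% interval −0.59 to 0.31), and of 0.064 without NN 6.

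Abhd5 encodes ABHD5, also called CGI-58, the coactivator of ATGL, at chr9:122351616-122381524. Its log2 signal was 2.80, 2.20, 2.38 and 2.37 on NB arrays 2, 3, 5 and 8, against 2.33, 2.24, 2.54 and 2.46 on NN arrays 1, 4, 6 and 7. NB 2 was the highest array and NB 3 the lowest, so the NB range enclosed all NN values. The difference was 0.048 on the log2 scale (SE 0.135, 95% interval −0.26 to 0.35), and −0.073 without NB 2. Expressed as ratios, the interval runs from 0.836 to 1.28.

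**Figure D1:**
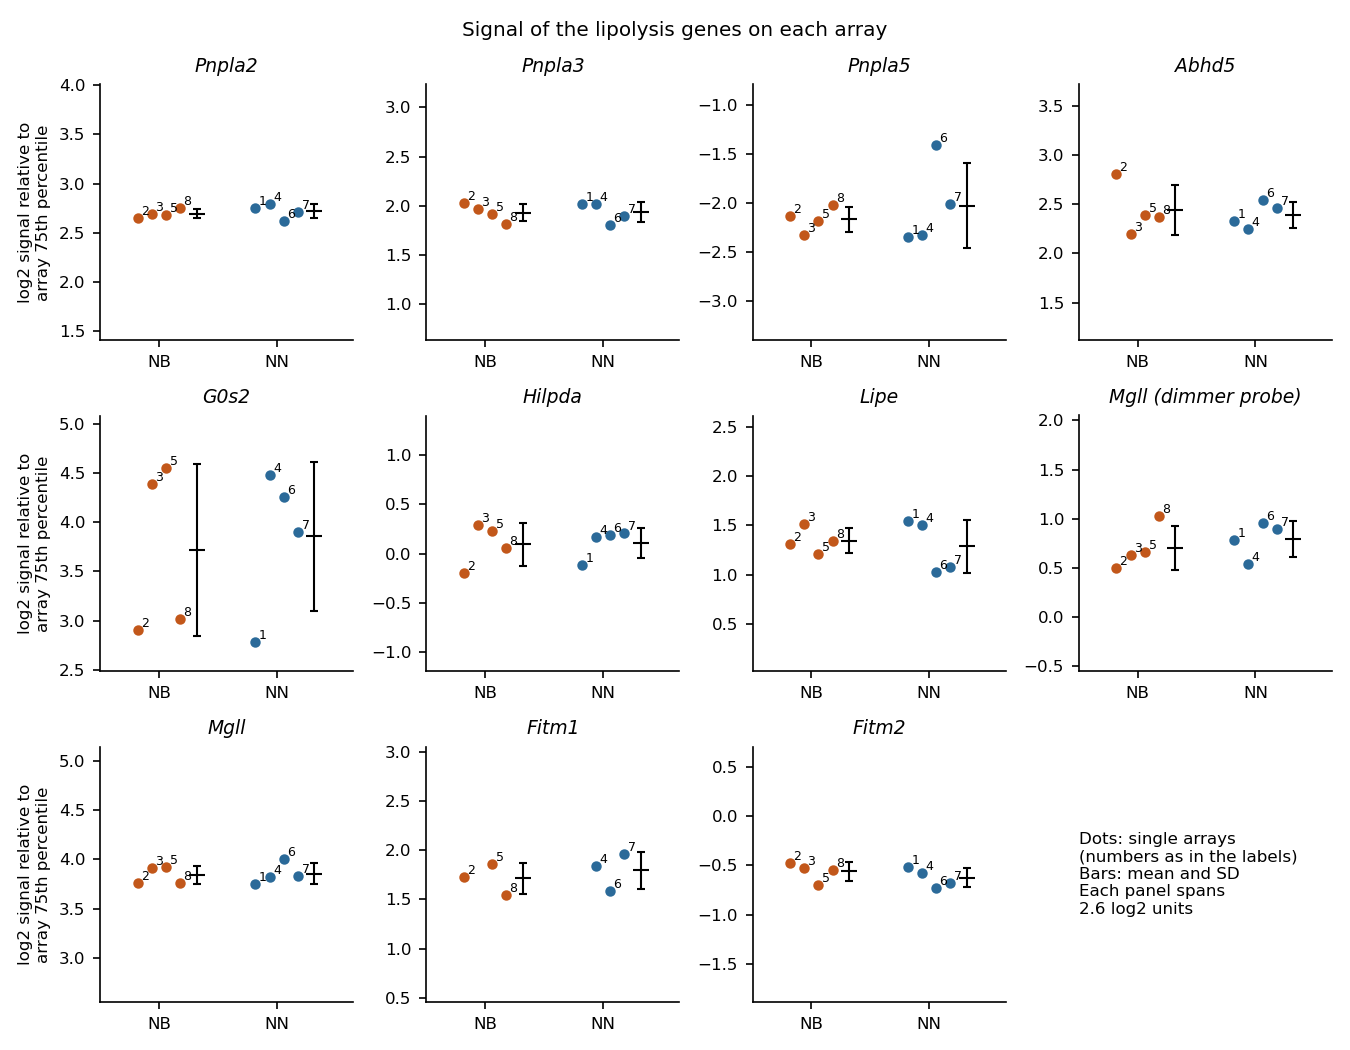
Log2 signal over the array's 75th percentile (y axis) for each probe of the 10 lipolysis genes, with NB arrays left and NN arrays right; dots are single arrays numbered as in the labels, bars the mean and SD, and every panel spans the same number of log2 units. G0s2 split into low arrays (NB 2, NB 8 and NN 1) and high arrays in both genotypes, while Pnpla2, Pnpla3 and Fitm2 spread by 0.17, 0.22 and 0.25 log2 units.

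Of the inhibitors of ATGL, G0s2 had the widest spread of the 10 genes. G0s2, at chr1:193272160-193273188, encodes a small protein that binds the patatin domain of ATGL and blocks it; its mRNA is known to respond to feeding, insulin and PPAR ligands. Its log2 signal was 2.91, 4.38, 4.55 and 3.01 on NB arrays 2, 3, 5 and 8, against 2.78, 4.48, 4.26 and 3.90 on NN arrays 1, 4, 6 and 7. NB 2, NB 8 and NN 1 were low and the other 5 arrays high, so both genotypes held low and high arrays. NB minus NN was −0.14 on the log2 scale (SE 0.482, 95% interval −1.24 to 0.95), an interval of ratios from 0.424 to 1.94. A difference of up to 2.36-fold lower or 1.94-fold higher in NB therefore lay within the interval. The standard deviation of G0s2 within genotypes was 0.815, at percentile 99.3 of all features. Within slide columns 1 to 4, NB minus NN was 0.12, −0.10, 0.29 and −0.89, and both arrays of column 1 were low.

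Hilpda, at chr6:29272488-29275449, encodes a lipid droplet protein induced by hypoxia and by fatty acids, and inhibits ATGL in liver and other tissues. Its log2 signal was −0.20, 0.29, 0.23 and 0.058 on NB arrays 2, 3, 5 and 8, against −0.12, 0.16, 0.18 and 0.21 on NN arrays 1, 4, 6 and 7. The lowest 3 arrays, NB 2, NN 1 and NB 8, were the 3 that were low for G0s2. Between genotypes the log2 fold change was −0.015 (SE 0.127, 95% interval −0.30 to 0.27).

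Across the 8 arrays, Pearson's r of G0s2 with Hilpda was 0.886 (exact permutation p = 0.00454, adjusted p = 0.0893 over 45 pairs) and Spearman's rho 0.762 (exact permutation p = 0.0368, adjusted p = 0.259). With the values centred within genotype r was 0.887. Without the 2 arrays whose G0s2 was farthest from its median, r was 0.788 (exact permutation p = 0.0889). Leaving out single arrays gave r between 0.845 and 0.930. The relation thus did not pass the adjustment over pairs, and with the 2 arrays left out it no longer passed unadjusted. The arrays fell into low and high ones for G0s2, with 3 low and 5 high, too few in either for an r of its own. Slide column 1 held NB 2 and NN 1, both low for both genes, so column and level cannot be told apart for those arrays. These were also the arrays with the highest 75th percentiles, 584.4 and 537.9 intensity units, and the most probes above background, 79.6% and 79.2%. NB 8, also low for G0s2, had 469.1 intensity units and 76.6%. The part of array brightness in the relation was not tested. Summed adipocyte markers without Car3 were 7.07 on NB 2, 7.79 on NB 8 and 7.14 on NN 1, within the range of 6.60 to 9.63 on the arrays with high G0s2. Their part in the G0s2 levels was not tested.

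**Figure D2:**
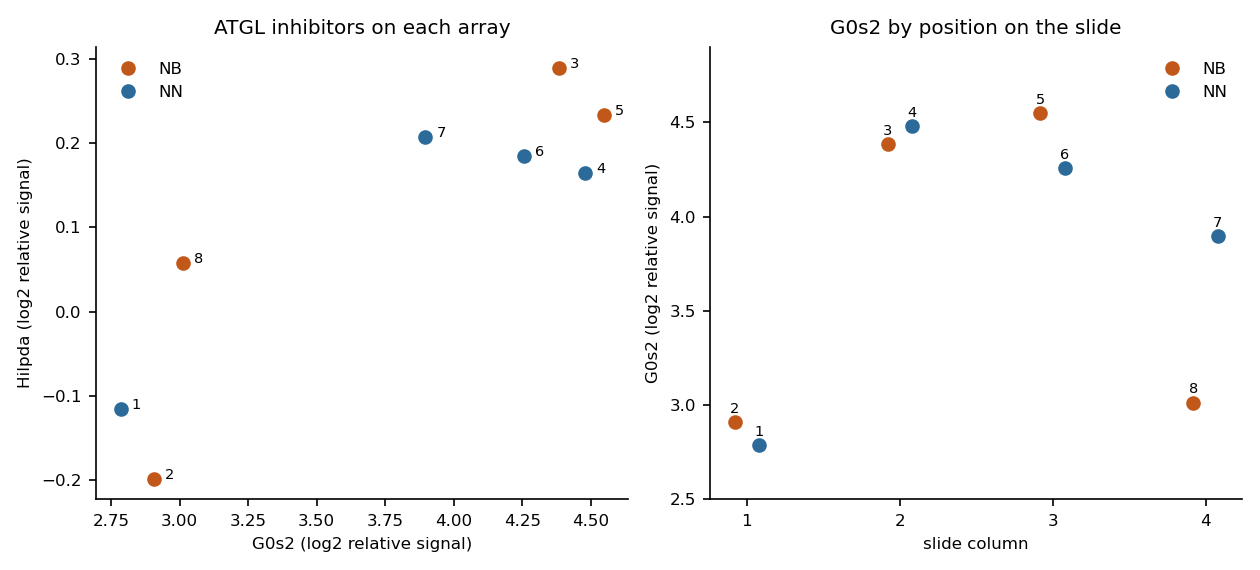
Left, log2 signal of Hilpda (y axis) against that of G0s2 (x axis), both relative to the 75th percentile of the array, 1 dot per array, NB and NN in separate colours with the numbers of the labels. Right, log2 signal of G0s2 (y axis) by slide column (x axis), NB left of NN within a column: both arrays of column 1 and NB 8 in column 4 were near 3, and the other arrays between 3.90 and 4.55.

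Because G0s2 and Hilpda were low on the same arrays, a promoter window of each is printed below. Windows are RefSeq sequence of GRCm38.p6 from 250 bases before to 50 bases after the annotated start, on the strand of the gene. All 10 genes had such a window, 13 windows in all, since some have more than 1 start. Both strands were searched for ACGTG, a form of the core of the site bound by hypoxia-inducible factors. The other form of that core, GCGTG, occurs in the printed windows but was not searched for or counted. Also searched were AGGTCA, the half-site of nuclear receptors such as PPARα, and the E-box CACGTG, which contains ACGTG. Of 32851 windows of this length, 19.6% held ACGTG, 16.3% AGGTCA and 7.15% CACGTG. Neither the G0s2 window nor the first Hilpda window, which is not printed, held any of the 3 searched motifs. The second Hilpda window, whose start lies downstream of the first, held ACGTG at 1 place, in capitals below. It held neither AGGTCA nor CACGTG.
G0s2, chr1:193273139-193273438, minus strand: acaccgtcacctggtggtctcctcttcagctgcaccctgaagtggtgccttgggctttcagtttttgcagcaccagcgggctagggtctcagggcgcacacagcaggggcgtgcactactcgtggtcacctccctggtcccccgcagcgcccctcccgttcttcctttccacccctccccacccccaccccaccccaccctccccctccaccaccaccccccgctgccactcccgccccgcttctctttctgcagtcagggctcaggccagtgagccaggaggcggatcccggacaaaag
Hilpda, chr6:29272376-29272675, plus strand: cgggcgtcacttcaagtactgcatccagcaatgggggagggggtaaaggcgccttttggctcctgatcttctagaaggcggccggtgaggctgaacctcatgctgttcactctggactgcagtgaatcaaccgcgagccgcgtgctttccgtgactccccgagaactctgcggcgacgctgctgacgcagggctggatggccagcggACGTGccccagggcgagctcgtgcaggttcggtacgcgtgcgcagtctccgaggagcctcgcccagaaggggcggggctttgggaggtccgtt

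The lipases downstream of ATGL were not called either. Lipe, at chr7:25379527-25398486, encodes hormone-sensitive lipase, which in adipose tissue is switched on by protein kinase A. Its log2 signal was 1.31, 1.51, 1.21 and 1.35 on NB arrays 2, 3, 5 and 8, against 1.54, 1.50, 1.03 and 1.08 on NN arrays 1, 4, 6 and 7. NN arrays 6 and 7 were the lowest and NN 1 the highest, with the NB arrays between. The difference was 0.058 on the log2 scale (SE 0.139, 95% interval −0.26 to 0.37), and below 0 without NN 6 (−0.030) or NN 7 (−0.011).

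Mgll, at chr6:88724412-88828360, encodes monoglyceride lipase, which also degrades the endocannabinoid 2-arachidonoylglycerol. Its brighter probe had log2 signals of 3.76, 3.92, 3.93 and 3.76 on NB arrays 2, 3, 5 and 8, against 3.75, 3.82, 4.00 and 3.83 on NN arrays 1, 4, 6 and 7. The dimmer probe read 0.50, 0.63, 0.67 and 1.02 on the same NB arrays, against 0.78, 0.54, 0.96 and 0.89 on the NN arrays. The probes disagreed on single arrays: NB 8 was the highest array for the dimmer probe and among the lowest for the brighter one. For the genotypes they gave log2 fold changes of −0.013 (SE 0.0855, 95% interval −0.21 to 0.18) and −0.088 (SE 0.135, 95% interval −0.40 to 0.22), both without a call.

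Fitm1 and Fitm2 encode proteins of the endoplasmic reticulum that take part in the budding of lipid droplets. Fitm1 is known mainly from skeletal muscle and Fitm2 from many tissues, adipose tissue included. Fitm1, at chr14:55575674-55576952, read 1.73, 1.86 and 1.55 on NB arrays 2, 5 and 8, against 1.84, 1.59 and 1.96 on NN arrays 4, 6 and 7. The spot was marked an outlier on NB 3 and NN 1, so the fit dropped these and rested on 3 arrays a genotype, which overlapped. On these arrays the log2 fold change was −0.082 (SE 0.137, 95% interval −0.41 to 0.24). The muscle markers above spanned like ranges in both genotypes; their part in the Fitm1 signal was not tested.

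Fitm2, at chr2:163468703-163472629, read −0.47, −0.53, −0.70 and −0.55 on NB arrays 2, 3, 5 and 8, against −0.52, −0.58, −0.73 and −0.68 on NN arrays 1, 4, 6 and 7. In all 4 slide columns the NB array was above the NN array, by 0.032 to 0.13, but over the slide the groups overlapped. The log2 fold change of 0.064 (SE 0.0834, 95% interval −0.13 to 0.25) had the smallest limma p of the 10 genes, not called (adjusted p = 1.00). It was 14656th of all features by p.

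**Figure D3:**
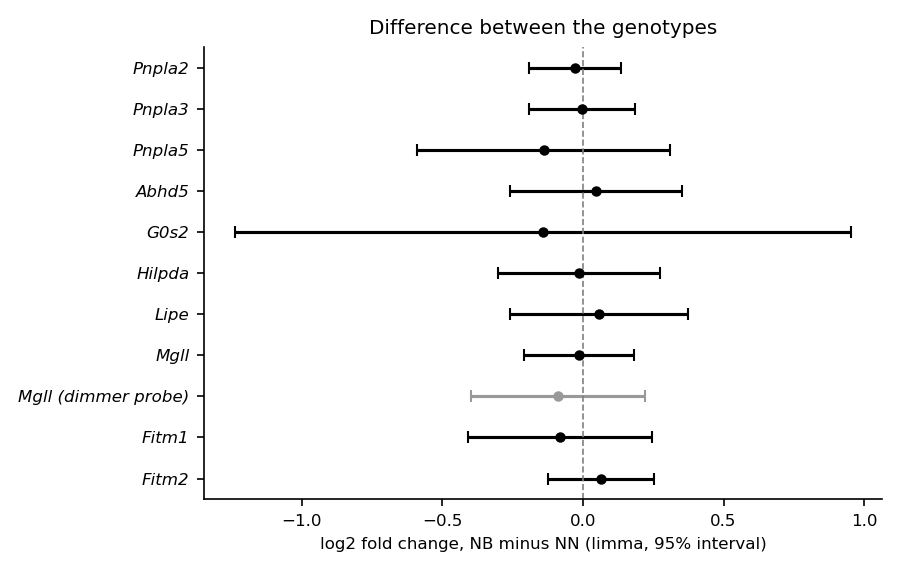
Log2 fold change, NB minus NN (x axis), of each lipolysis gene and of the dimmer Mgll probe (grey), with the 95% interval of the limma fit as bars. All 11 intervals include 0; the one of G0s2 is the widest (−1.24 to 0.95) and the one of Pnpla2 the narrowest (−0.19 to 0.13).

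Among all 45 pairs of the 10 genes, 7 had an unadjusted exact permutation p under 0.05 for Pearson's r, and 0 an adjusted one. Mgll entered these pairs through its brighter probe only. Its dimmer probe, which disagreed with the brighter one on single arrays, was not paired. Pnpla5 ran against Lipe (r = −0.826, exact permutation p = 0.00154, adjusted p = 0.0692; rho = −0.881, exact permutation p = 0.0072, adjusted p = 0.259) and without the 2 farthest arrays r was −0.784 (exact permutation p = 0.0639). After quantile normalization this pair alone passed, with an adjusted exact permutation p of 0.0446. The other 5 pairs had r of −0.782 for Pnpla3 with Pnpla5, 0.799 for G0s2 with Mgll, 0.728 for Hilpda with Mgll, 0.789 for Lipe with Fitm2 and −0.731 for Mgll with Fitm2. Their adjusted exact permutation p lay between 0.0893 and 0.269, and without the 2 farthest arrays r moved to −0.585, 0.670, 0.628, 0.489 and −0.284. The lipase gene itself was in none of these pairs: r of Pnpla2 with G0s2 was −0.159 (exact permutation p = 0.699, adjusted p = 0.873) and with Abhd5 −0.606 (exact permutation p = 0.105, adjusted p = 0.313). With Lipe, Mgll and Pnpla5 its r was 0.627, −0.614 and −0.609, each at an adjusted exact permutation p of 0.313. With Pnpla3, Hilpda, Fitm1 and Fitm2 it was 0.308, −0.064, 0.207 and 0.343.

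The genes whose pattern over the 8 arrays was most like 3 of the members were sought among 22703 named genes, by Pearson's r with values centred within genotype, and are given as a description without a test. For Pnpla2 they were Tmem132d (r = 0.971, but 0.677 as measured), Aftph (0.965) and Fam180a (0.961). For Pnpla3 they were Gm36649 (0.995), Olfr332 (0.986) and Tmem95 (0.982), with log2 ranges of 0.41, 0.51 and 0.80, against 0.22 for Pnpla3. For G0s2 they were Slc13a2 (0.976), Zfp715 (0.973) and Olfr857 (0.970). Each is the top of a search over many genes on 8 arrays that share 1 slide, and the ranges of the genes like G0s2 were narrow beside its own: 0.33 for Slc13a2, 0.48 for Zfp715 and 0.67 for Olfr857 on the log2 scale, against 1.76 for G0s2.

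The other proteins of the lipid droplet surface gate access of the lipases to triglyceride. Of 14 genes on that list 13 were measured, 5 above and 8 below 0, a median log2 fold change of −0.032 and 0 called. Plin5, which brings ATGL and ABHD5 to the droplet in oxidative tissues, read 3.27, 3.52, 3.21 and 3.76 on NB arrays 2, 3, 5 and 8, against 3.87, 3.88, 3.46 and 3.59 on NN arrays 1, 4, 6 and 7, a log2 fold change of −0.26 (SE 0.149). Plin1, the droplet coat of adipocytes that holds ABHD5 back until it is phosphorylated, read −2.94, −2.96, −2.67 and −2.61 on NB arrays, against −2.82, −3.26, −2.98 and −3.08 on NN arrays, a log2 fold change of 0.24 (SE 0.123). The groups overlapped for both. Plin2, the main droplet coat of hepatocytes, was at −0.019 (SE 0.158), Cidec, which fuses droplets, at −0.081 (SE 0.136), and Aup1 at −0.069 (SE 0.0736).

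Of 21 other patatin-like and serine lipases, all measured, 6 lay above and 15 below 0, with a median of −0.055 and 0 called. Lpl, the lipase of circulating lipoproteins, had the smallest limma p and read 1.68, 2.61, 2.14 and 1.48 on NB arrays 2, 3, 5 and 8, against 1.27, 1.71, 1.40 and 1.73 on NN arrays 1, 4, 6 and 7. NB 3 and NB 5 were above all NN arrays and NB 2 and NB 8 among them (log2 fold change 0.45, SE 0.238). Aadac, a liver deacetylase with lipase activity, was at −0.12 (SE 0.0798) and Pnpla7, a lysophospholipase, at −0.16 (SE 0.128).

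Hormones act on lipolysis through cyclic AMP, protein kinase A and insulin signalling. Of 22 such genes 21 were measured, 16 above and 5 below 0, with a median of 0.029 and 0 called. Pde4b, a phosphodiesterase that degrades cyclic AMP, had the smallest limma p of its list. It read 0.58, 0.29, 0.95 and 0.94 on NB arrays 2, 3, 5 and 8, against 1.37, 0.95, 1.36 and 1.17 on NN arrays 1, 4, 6 and 7. All NB values lay below all NN values, by little between NB 5 (0.947) and NN 4 (0.954). The groups likewise did not overlap for 1.1% of all features. NB minus NN was −0.53 on the log2 scale (SE 0.166), and the gene was not called. Pde3b, the phosphodiesterase through which insulin restrains lipolysis in adipocytes, was at 0.032 (SE 0.113), Gcgr, the glucagon receptor, at −0.10 (SE 0.0767), and Prkar2a, a regulatory subunit of protein kinase A, at −0.13 (SE 0.0941).

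The transcription factors known to act on these genes numbered 18, all measured, with 5 above and 13 below 0, a median of −0.060 and 0 called. Srebf1, which encodes SREBP-1, was at −0.17 (SE 0.131), Ppard at 0.13 (SE 0.109) and Rxra, the partner of the PPARs, at −0.081 (SE 0.0900). Triglyceride synthesis, the opposite arm, had 13 genes, 5 above and 8 below 0, a median of −0.035 and 0 called. Of these Agpat2 was at −0.11 (SE 0.0717), Gpat3 at 0.16 (SE 0.131) and Dgat1 at −0.075 (SE 0.0773). Among 23 genes of PPARα and fatty acid oxidation 6 lay above and 17 below 0, with a median of −0.031 and 0 called. The pantetheinase gene Vnn1 was at 0.23 (SE 0.169) and Hadha, of mitochondrial β-oxidation, at −0.099 (SE 0.0836). Hypoxia targets, listed because Hilpda is one, numbered 13, with 6 above and 7 below 0, a median of −0.010 and 0 called. Egln3 was at −0.12 (SE 0.0736), Pfkfb3 at 0.53 (SE 0.360) and Car9 at 0.077 (SE 0.0679).

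The lipogenic genes had a median log2 fold change of −0.32, with 0 of 13 above 0, where 54.1% of all features were below 0. None was called, and 2 of the 13 had an unadjusted limma p under 0.05, as did 1.69% of all features. The median rested in part on single arrays: it was −0.17 without NN 6, −0.19 without NB 3 and −0.48 without NB 8. Scd1, the stearoyl-CoA desaturase, read 6.26, 5.19, 6.07 and 6.68 on NB arrays 2, 3, 5 and 8, against 6.77, 6.62, 6.87 and 6.68 on NN arrays 1, 4, 6 and 7. Me1, malic enzyme, read 2.26, 1.60, 2.25 and 2.59 on NB arrays, against 2.71, 2.52, 2.98 and 2.68 on NN arrays. NB 3 was the lowest array for Scd1, Me1, Pklr (−1.20) and Srebf1 (4.00), while Pnpla3 on NB 3 was 1.96, the third of the 4 NB arrays from below. NB 3 also had the lowest hepatocyte marker sum of the 8 arrays, 1058, and the highest macrophage marker sum, 163; their part in these levels was not tested. NB 8 was the highest NB array for these 4 genes and the lowest NB array for Pnpla3.

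**Figure D4:**
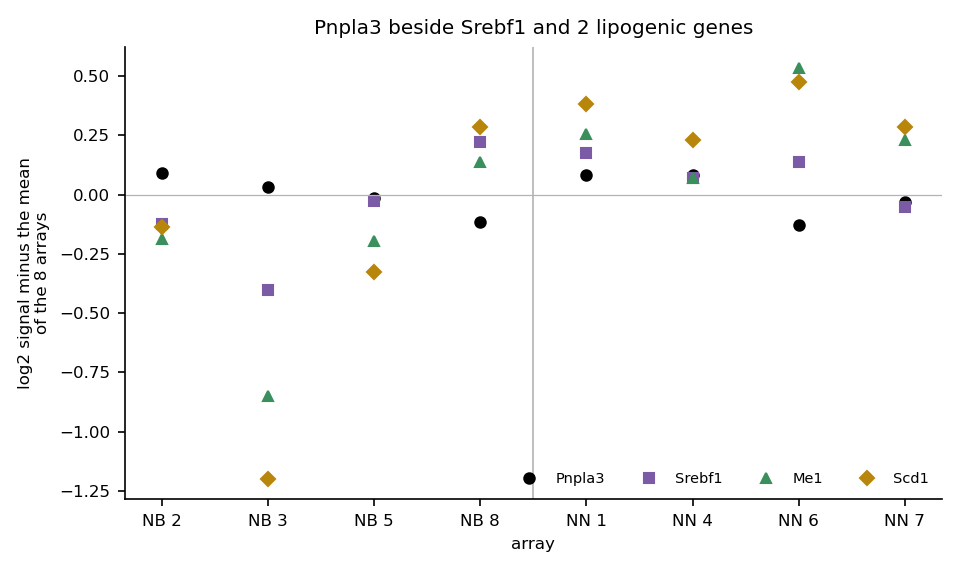
Log2 signal of Pnpla3, of the transcription factor gene Srebf1 and of the lipogenic genes Me1 and Scd1 on each array, as the difference from the mean of the 8 arrays (y axis), with NB arrays left and NN arrays right (x axis). Srebf1, Me1 and Scd1 lie lowest on NB 3, while Pnpla3 spans 0.22 log2 units over all arrays.

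**Figure D5:**
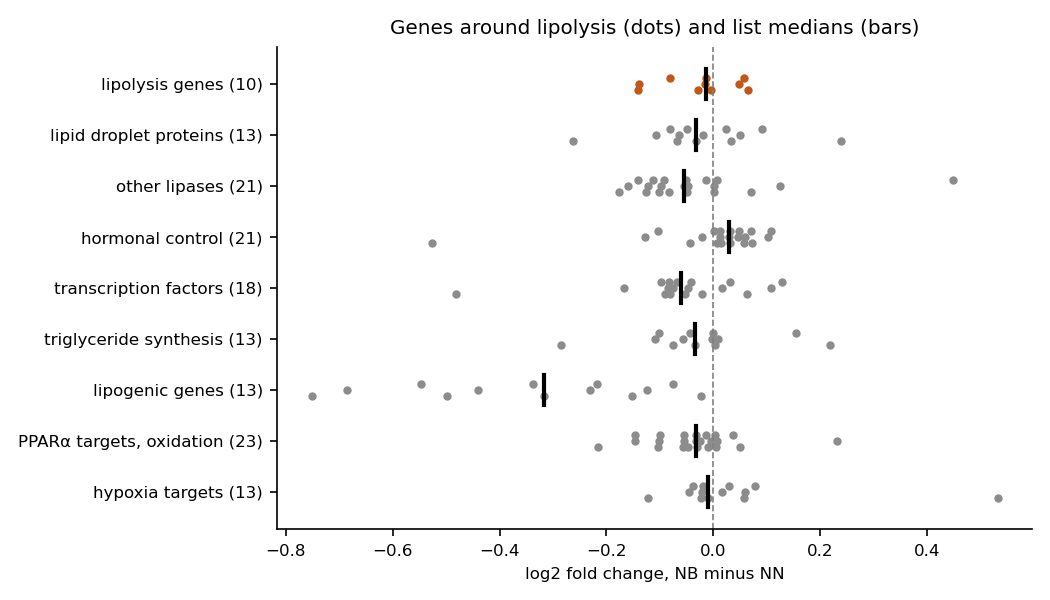
Log2 fold change, NB minus NN (x axis), of each measured gene (dots) in the lipolysis genes (top, colour) and 8 lists of related genes (rows, number measured in brackets), with the list median as a bar. The medians lie between −0.060 and 0.029 except for the lipogenic genes at −0.32.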

How the data were processed

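Total RNA of 8 liver samples, isolated with TRIzol and selected for integrity per the labels, was labelled with Cy3 and hybridised to 8 one-colour arrays. Per the file headers, the deposited processed signal is a spot intensity, corrected for background and spatial trend, from Agilent Feature Extraction 11.5.1.1; the submitters' processing notes name version 9.1. The authors' value table, used as an alternative, holds linear intensities with equal sorted columns (median 84.2) and no stated scale. The header names the build mm9; symbols, chromosomes and coordinates came from RefSeq, GRCm38.p6, by accession without version.

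Of 61473 spots (60273 probes, 31064 of them named), the software marked 248 to 621 on an array as outliers, which were left out; no spot was saturated. Spots of a probe were averaged, and log2 signals set relative to the 75th percentile of the array. Kept were probes that the software marked well above background on 4 or more of 8 arrays, and of these the brightest per gene, which gave 43152 features. The 2 genotypes were fitted in limma 3.58.1 under R 4.3.3 (lmFit, then eBayes; a two-sided test of NB minus NN, Benjamini-Hochberg over all features, threshold 0.05). The steps were tested on simulated data. Pairs of genes were compared over arrays by two-sided exact permutation tests. Nothing in the labels states that arrays are separate animals; p-values then reflect only the spread among these samples, which may be technical.

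The members and lists were chosen with earlier results of these data known. Named genes were every member, from each other list any called gene and the 3 with the smallest p, with Plin1, Plin2, Plin5, Cidec and Pde3b, and the 3 genes most like Pnpla2, Pnpla3 and G0s2; of the genes under this rule, 2 are not reported here, nor screened for arrays far from their genotype. Alternatives were normexp (offset 50), scaling by quantiles, by the median or by a percentile over other probes, the authors' table, other filters on dim probes, other summaries of a gene's probes, outlier spots kept, array weights, the variance model, slide position and each array left out. Lists of markers of 10 tissues or cell types were also read: hepatocytes, adipocytes and muscle are in the report, and the others in the closing section.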

Additional observations from a re-analysis of the deposited data

Results flagged for a closer look

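Of 72 sets of 4 arrays screened for a single array far from the others of its genotype, 3 stood out, and chance alone gives about 5% of sets. Among the lipolysis genes this was Hilpda on NN 1, at −0.12 on the log2 scale, with the other NN arrays at 0.16 to 0.21. Rxra on NB 2 was 5.56, with the other NB arrays at 5.83 to 5.84. Egln3, a hypoxia target, was 0.495 on NB 3, with the other NB arrays at 0.642 to 0.670.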

How the results depend on the processing

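No lipolysis gene and no named gene of the other lists was called under any of the 14 other settings or the 8 fits with 1 array left out; the lowest adjusted limma p of a lipolysis gene was 1.00. Features called over the whole array numbered 3, but 5 where all probes of a gene were averaged, from 2 to 5 over the other settings and from 2 to 3 with 1 array left out. Features at an unadjusted p under 0.05 ranged from 552 to 1457. Log2 fold changes so near 0 changed sign often, in 33 of 219 fits over the 10 genes. Some of these fits repeated the main log2 fold change, such as those without a filter or with another variance model. They could not change a sign, so the share of 219 understates how easily signs turned. Changes of sign touched 8 of the genes, but not Pnpla2 (−0.061 to −0.0031) or Fitm2 (0.028 to 0.11). Under normexp the sign was positive for Pnpla3 (0.053), Hilpda (0.027) and Mgll (0.042), and under array weights for G0s2 (0.068), Hilpda (0.028) and Mgll (0.021). Quantile normalization gave 0.0013 for Pnpla3 and 0.019 for Mgll, and the authors' values gave 0.0061 and 0.026. Median scaling gave 0.0036 and the percentile over probes above background on all arrays 0.0017 for Pnpla3. With 1 array left out, log2 fold changes ranged from −0.047 to 0.034 for Pnpla3, −0.25 to 0.064 for Pnpla5, −0.073 to 0.13 for Abhd5, −0.50 to 0.13 for G0s2, −0.090 to 0.083 for Hilpda, −0.030 to 0.14 for Lipe, −0.046 to 0.037 for Mgll and −0.19 to 0.00047 for Fitm1. The cause of these changes of sign was not tested. The filter for all 8 arrays left Fitm1 without a value. Pairs past the adjusted threshold numbered 0, and 1 after quantile normalization. Fits on 1 array fewer for the pairs were added after the data were seen. The median of the lipogenic genes ranged from −0.48 to −0.17 with 1 array left out. Pairing by sample number was not possible because the numbers run through both genotypes and none is shared. Slide columns held 1 array of each genotype; with the column as a block, 0 of the 10 genes and 3 features were called.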

Other observations

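The remaining marker lists give the makeup of the livers beside which the lipolysis genes were read. Each list is given as the linear sum of its measured genes, relative to the 75th percentile of the array. Kupffer cell and macrophage markers, 12 of 12 above background on all arrays, summed to 116 to 163 on NB and 117 to 146 on NN arrays. Their median log2 fold change was 0.22. Trem2 made up 41.9% to 64.7% of the sum. Without Trem2 the sums were 60.7 to 73.5 on NB and 49.9 to 60.9 on NN arrays. These overlapped only between NB 2 (60.75) and NN 7 (60.86). Stellate cell markers (10 of 10) summed to 54.1 to 60.0 on NB and 50.3 to 63.2 on NN arrays, and endothelial markers (8 of 8) to 49.6 to 57.0 on NB and 49.6 to 55.8 on NN arrays. Bile duct markers were above background on all arrays in 8 of 8. For lymphocytes (9 of 9) the sums were 16.7 to 27.8 on NB and 20.6 to 28.6 on NN arrays. Neutrophil markers (6 of 7 on the array) summed to 13.9 to 19.7 on NB and 11.52 to 18.78 on NN arrays, and markers of exocrine pancreas (9 of 10 above background on all arrays) to 16.9 to 21.9 and 17.4 to 19.8. The ranges of the genotypes overlapped for every list summed here. A single gene made up most of some sums: Cd8a 55.0% to 72.6% of the lymphocyte sum and Cela1 67.4% to 76.6% of the pancreas sum.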
